A study of Sus scrofa with 16 samples.

Results

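Accessible chromatin regions (ACRs) that were called in adult pig liver and in no other sample group of the series are described here. They are the peaks of the adult liver list on chromosomes 1 to 18 that overlapped no peak of the other 7 lists by 1 bp or more. The rule chose 14647 regions from 104770 adult liver peaks, which is 14.0% of the list (95% Wilson confidence interval 13.8 to 14.2, counting error only). They are called adult-only peaks below, and the other 90123 are called shared adult peaks. The members were chosen by the measured peak calls, so their absence from the other lists is a description and carries no test.

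ATAC-seq, which cuts and tags accessible DNA with a transposase, was applied to 16 libraries of crossbred domestic pigs, all of them female. The methods describe the animals of an age as full siblings of a Berkshire × Tibetan cross. Heart, kidney, lung, skeletal muscle, spleen and liver came from newborns (day 0 in the labels). Liver also came from suckling pigs at 28 days and from adult pigs at 180 days, and each of the 8 groups had 2 replicates. No animal carried a treatment or a genetic change. Only liver was taken from adults, so adult age and adult liver cannot be told apart for a peak found in the adult list alone, and the other tissues show nothing about later ages. Each list merges its 2 libraries, so a count has no replicate error. Differences between lists were not tested. The lists hold no read counts, the read totals that the study states for its libraries were not used here, and an uncalled peak is not a measured absence of accessibility. In whole tissue, fewer cells of a type and less open chromatin per cell cannot be told apart.

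The liver of a newborn mammal still makes blood cells and grows quickly. In adult liver, hepatocytes clear many drugs, make bile acids and handle cholesterol and amino acids. Most of these hepatocyte genes are controlled by distal enhancers as well as by promoters. Enhancers in hepatocytes are known to be bound by factors such as C/EBP, HNF1, HNF4, FOXA, ONECUT and nuclear factor I (NFI), together with nuclear receptors that sense bile acids, sterols and hormones. PAR bZIP factors such as DBP follow the circadian clock.

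Reference sequences from Sscrofa11.1 are shown for 10 adult-only peaks that the results below turn on. They are the strongest intergenic member, the strongest member of all (GRM7) and the strongest member within each of SOX5, AKR1D1 and CYP3A22. The rest are promoter members of genes in the lists below. Each run covers 200 bases of the plus strand, centred on the summit, and is named by the nearest gene or the gene that holds it. Capitals mark matches, on either strand, to any of 20 consensus sequences. NFI was searched as TTGGCA, CEBP as TTGCNNAA, FOXA as TGTTTAC, HNF1 as GTTAATNAT, HNF4 as CAAAGTCCA, DBP as TTATGNAA, ROR as TAGGTCA and MYOD as CAGCTG. In the last run, which is centred on the middle of the peak, capitals mark instead the bases inside exact matches of 24 or more bases with the mitochondrial genome of the same assembly.
ADGRL3, distal (chr8:60958118-60958317): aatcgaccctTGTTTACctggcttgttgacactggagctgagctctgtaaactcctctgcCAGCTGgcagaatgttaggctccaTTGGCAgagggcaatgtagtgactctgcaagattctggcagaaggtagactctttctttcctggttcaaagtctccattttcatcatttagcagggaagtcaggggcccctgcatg
SOX5, intron (chr5:49765541-49765740): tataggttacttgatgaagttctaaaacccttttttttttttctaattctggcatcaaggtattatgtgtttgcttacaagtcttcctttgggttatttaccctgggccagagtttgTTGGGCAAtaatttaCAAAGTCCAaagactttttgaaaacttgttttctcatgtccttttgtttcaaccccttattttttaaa
AKR1D1, intron (chr18:11501401-11501600): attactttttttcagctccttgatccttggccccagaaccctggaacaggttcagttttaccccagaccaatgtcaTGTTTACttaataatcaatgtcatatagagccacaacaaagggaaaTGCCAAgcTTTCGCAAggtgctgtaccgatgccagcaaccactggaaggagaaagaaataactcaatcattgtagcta
CYP3A22, intron (chr3:6650904-6651103): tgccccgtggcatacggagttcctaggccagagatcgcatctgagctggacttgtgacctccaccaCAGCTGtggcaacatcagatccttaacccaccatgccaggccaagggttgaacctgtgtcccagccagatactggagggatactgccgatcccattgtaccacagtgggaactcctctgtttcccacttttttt
THRB, promoter (chr13:11260192-11260391): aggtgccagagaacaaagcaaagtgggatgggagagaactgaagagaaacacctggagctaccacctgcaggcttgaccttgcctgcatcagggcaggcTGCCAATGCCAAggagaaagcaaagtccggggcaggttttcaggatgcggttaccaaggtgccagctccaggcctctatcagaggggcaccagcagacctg
PER2, promoter (chr15:137836053-137836252): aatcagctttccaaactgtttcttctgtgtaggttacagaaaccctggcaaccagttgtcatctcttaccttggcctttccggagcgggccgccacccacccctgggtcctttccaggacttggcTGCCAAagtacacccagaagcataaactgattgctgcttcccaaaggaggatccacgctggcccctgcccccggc
HP, promoter (chr6:14978239-14978438): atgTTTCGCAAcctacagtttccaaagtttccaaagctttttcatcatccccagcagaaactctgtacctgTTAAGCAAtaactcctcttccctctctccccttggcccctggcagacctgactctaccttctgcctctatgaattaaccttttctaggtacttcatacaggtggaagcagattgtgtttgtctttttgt
SLCO1B3, promoter (chr5:52206088-52206287): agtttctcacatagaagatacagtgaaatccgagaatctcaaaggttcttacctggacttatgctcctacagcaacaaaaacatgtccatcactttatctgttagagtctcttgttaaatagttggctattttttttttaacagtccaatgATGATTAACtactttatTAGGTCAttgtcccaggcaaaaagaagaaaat
JAK2, promoter (chr1:216959771-216959970): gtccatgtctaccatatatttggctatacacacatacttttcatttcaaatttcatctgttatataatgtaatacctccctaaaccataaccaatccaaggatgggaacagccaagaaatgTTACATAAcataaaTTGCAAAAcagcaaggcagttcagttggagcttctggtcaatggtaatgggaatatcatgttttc
GRM7, intron (chr13:64066523-64066722): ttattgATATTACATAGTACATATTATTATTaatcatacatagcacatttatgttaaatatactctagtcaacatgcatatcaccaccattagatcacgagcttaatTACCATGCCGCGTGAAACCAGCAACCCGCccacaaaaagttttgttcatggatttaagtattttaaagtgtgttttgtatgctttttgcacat

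The distal run near ADGRL3 holds FOXA, MYOD and NFI matches, and the AKR1D1 run holds FOXA, NFI and CEBP matches. In SOX5 a CEBP match lies beside an HNF4 match. THRB holds 2 adjoining NFI matches and PER2 holds 1, HP holds 2 CEBP matches, SLCO1B3 holds HNF1 and ROR matches, and JAK2 holds DBP and CEBP matches. The CYP3A22 run holds a MYOD match. A match is a run of letters in the reference and not a measured binding site. The share of adult-only and shared peaks with each match is given further on.

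Adult-only peaks were weaker and narrower than shared adult peaks. Each peak carries the −log10 p of its call in both replicates, and the smaller of these is used as its strength. The median strength was 7.39 (quartiles 5.08 and 14.0, range 2.89 to 398) for adult-only and 17.7 for shared adult peaks, and the median width was 275 against 492 bp. Spearman's rho between replicates across peaks was 0.603 for adult-only and 0.778 for shared peaks. The irreproducible discovery rate (IDR), which is low where a peak ranks consistently high in both replicates, was 0.05 or lower in 3384 adult-only peaks (23.1%, 22.4 to 23.8). Among shared adult peaks it was 54.9%, and among all adult peaks 50.4%. An IDR of 0.01 or lower was reached by 1428 adult-only peaks (9.75%).

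The adult-only share fell from decile to decile of peak strength. It was 27.1% in the weakest decile of adult peaks by the smaller −log10 p and 0.0668% in the strongest, where 7 of 10477 peaks were adult-only. The decrease held across all 10 deciles. The part of sequencing depth in membership was not tested.

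**Figure D1:**
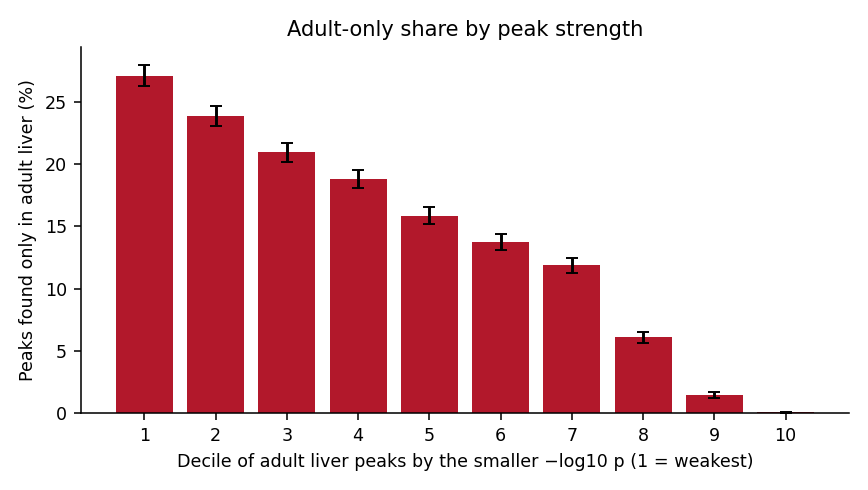
Share of adult liver peaks found only in adult liver (y axis, percent) in each decile of the smaller replicate −log10 p (x axis, 1 = weakest), with 95% Wilson intervals as error bars. The share decreases from 27.1% in decile 1 to 0.0668% in decile 10.

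Compared with peaks found only in the other liver ages, the adult-only peaks more often ranked high in both replicates. An IDR of 0.05 or lower was found in 23.1% of adult-only peaks. Of 10314 peaks found only in newborn liver it was 2.24% (1.97 to 2.54), and of 20864 found only in suckling liver 0.959% (0.835 to 1.10). Peaks found only in 1 of the other tissues ranged from 7.96% in spleen to 17.1% in muscle. The IDR share of all peaks in those lists is not given here. A difference between whole lists therefore cannot be told apart from one between their restricted peaks. By the same rule, 8.93% of the newborn liver list and 15.4% of the suckling liver list were found in that list alone, and the other tissues ranged from 15.8% in heart to 29.0% in kidney. The share of adult peaks thus chosen lay inside the range of the other lists. Of the shared adult peaks, 13510 were in liver at all 3 ages and in no other tissue, 5346 in suckling and adult liver only, and 3487 in newborn and adult liver only.

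Many adult-only peaks lay near peaks of other lists. The gap to the nearest peak of another list had a median of 1531 bp. It was 500 bp or less for 23.0%, within 1 kb for 38.2% and within 10 kb for 92.2% of the members, with the largest gap at 200526 bp. The nearest peak belonged to suckling liver in 24.4%, to newborn liver in 24.2% and to kidney in 17.8% of cases. These lists were long, with 135635, 115504 and 128184 peaks, and the part of list length was not tested. The 184 members with a gap under 50 bp had a median smaller −log10 p of 5.79, and the 197 shared peaks that overlapped another list by under 50 bp had 4.93. The 1145 members over 10 kb from any other peak had a median of 8.06, and 27.2% of them had an IDR of 0.05 or lower.

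Adult-only peaks lay mainly in introns and between genes. Introns held 7651 (52.2%, 51.4 to 53.0) and intergenic sequence 5109 (34.9%). Exons held 1168 (7.97%) and promoters, from 2.2 kb upstream to 500 bp downstream of a start site of a protein-coding gene (PCG), held 667 (4.55%, 4.23 to 4.90). Among shared adult peaks the promoter share was 17.7% and the intron share 39.9%. Peaks of all 3 liver ages that no other tissue shared had 5.04% in promoters and 47.2% in introns. Newborn-only and suckling-only liver peaks had 3.11% and 2.79% in promoters. A low promoter share was therefore common to every one of these restricted sets and not particular to adult liver. Outside promoters, the median distance from a start site was 31557 bp for adult-only peaks and 27966 bp for shared adult peaks.

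**Figure D2:**
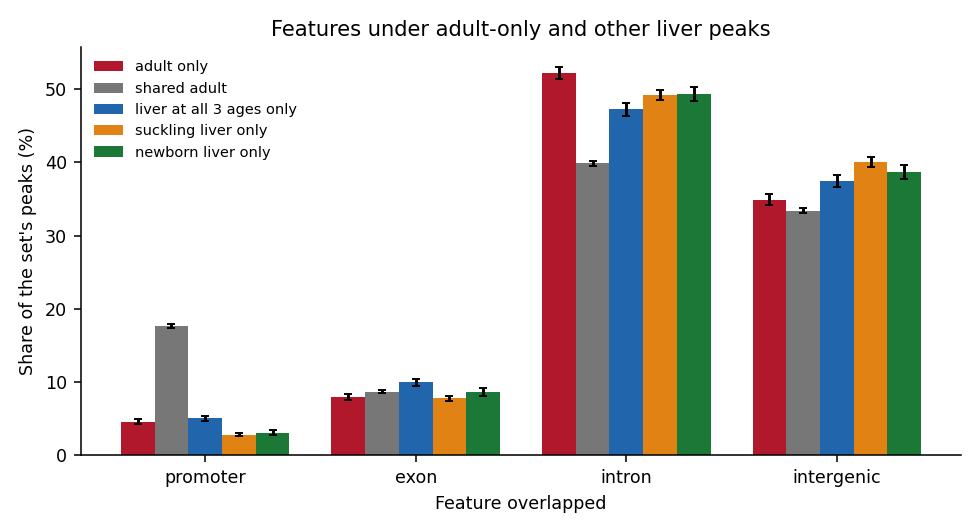
Share of each peak set (y axis, percent) that overlaps a promoter, exon, intron or intergenic sequence (x axis), with 95% Wilson intervals as error bars. Adult-only peaks have the highest intron share (52.2%), and shared adult peaks stand apart with a promoter share of 17.7%.

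The base composition of adult-only peaks also differed. In 200 bp windows around the summits outside promoters, mean GC content was 44.5% (SD 8.18 over 13980 peaks) against 51.0% (SD 9.01) in shared adult peaks, a difference of −6.43 percentage points. It was 45.7% in peaks of newborn and adult liver only, close to the adult-only value, and 48.2% in peaks of all 3 liver ages only. Newborn-only peaks had 50.4% and suckling-only peaks 54.9%. The adult-only set was therefore the most AT-rich of these sets, and the suckling-only set the most GC-rich. Repeats, soft-masked in the assembly, covered a mean of 22.8% of the adult-only windows and 13.0% of the shared ones, and between 20.4% and 21.2% of the newborn-only, suckling-only and suckling-and-adult liver windows. In promoters, mean GC content was 48.4% for the 667 adult-only peaks and 64.6% for shared adult peaks, and the mean number of CpG sites was 4.94 against 16.1. The peak lists give no GC profile of the libraries, so the part of library composition in this difference was not tested.

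Consensus sequences of transcription factors were then counted in the windows outside promoters. The largest difference was for NFI, with a match in 23.1% (22.4 to 23.8) of adult-only and 17.9% (17.6 to 18.1) of shared adult peaks. CEBP followed with 19.3% against 14.3%, and DBP with 6.22% against a share 2.62 points lower. Each of these was higher on 18 of 18 chromosomes. ROR (4.91% against 3.41%), ONECUT (2.68% against 1.27%), HNF1 (2.30% against 1.49%) and HNF4 (1.74% against 1.36%) were also higher. CTCF, the insulator protein, was lower (−4.15 points, with 6.11% in shared peaks), as were MYOD (12.9% against 17.1%) and SPI1, a factor of myeloid and B cells (1.24% against 2.69%), each on 18 of 18 chromosomes. Low CTCF and SPI1 shares were not particular to adult-only peaks. CTCF had 2.99% in peaks of all 3 liver ages only, 2.49% in suckling and adult liver only and 2.75% in newborn and adult liver only. SPI1 had 1.36%, 1.43% and 1.68% in these sets. The low MYOD share was not particular to adult-only peaks either. MYOD had 12.7% in newborn and adult liver only, 14.8% in all 3 liver ages only and 16.2% in suckling and adult liver only. Newborn-only and suckling-only peaks had 5.05% and 6.05% for CTCF. Some of the higher shares were also matched in related liver sets. NFI matches were present in 23.1% of peaks found only in suckling and adult liver, 18.3% of peaks of all 3 liver ages only, 11.7% of newborn-only and 10.1% of suckling-only peaks. In peaks of all 3 liver ages only, CEBP reached 18.6%, HNF4 2.15% and ONECUT 3.41%, which is above the adult-only value for ONECUT. ROR had 5.26% in that set, 4.98% in suckling and adult liver only, 5.12% in newborn-only and 4.31% in suckling-only peaks. Peaks of newborn and adult liver only had 18.6% for CEBP, 5.72% (4.98 to 6.55) for DBP, 2.18% for HNF1, 1.89% for HNF4 and 5.36% for ROR. Their NFI share was lower, at 17.4%. DBP was also lower in peaks of all 3 liver ages only (3.98%) and of suckling and adult liver only (3.67%). Among the adult-only peaks with an IDR of 0.05 or lower, NFI reached 29.5% and CEBP 26.1%. Shared adult peaks with such an IDR had 20.2% and 16.3%, also higher than over all shared peaks. In all, 11 of 20 consensus sequences had an interval above that of shared adult peaks, 4 had one below, and 5 overlapped.

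These differences were read again within bands of GC content, since the sets differ in it. NFI was above the shared peaks in all 3 bands, with 22.5% against 17.6% under 40% GC, 24.7% against 19.9% from 40 to 50%, and 21.1% against 16.4% at 50% or more. CTCF and SPI1 were below in all 3 bands. For CEBP the difference was 3.83 points under 40% GC and 1.27 points from 40 to 50%, where intervals overlapped, and −0.128 points at 50% or more. FOXA was 0.644 points higher overall but lower within each band (−0.805, −1.07 and −0.486 points), and STAT turned in the same way. DBP and ONECUT were likewise below 0 at 50% GC or more, HNF1 from 40 to 50% and GATA in every band, EBOX was above 0 in the upper 2 bands, and MYOD intervals overlapped in all 3. ROR exceeded the shared peaks by 3.51 points at 50% GC or more and by 0.0888 points under 40%. Where over 50% of the window was soft-masked, ROR matches were present in 13.2% of adult-only and 15.4% of shared peaks, against 3.42% and 2.72% in the other windows. NFI kept its difference outside repeats (24.3% against 18.1%).

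**Figure D3:**
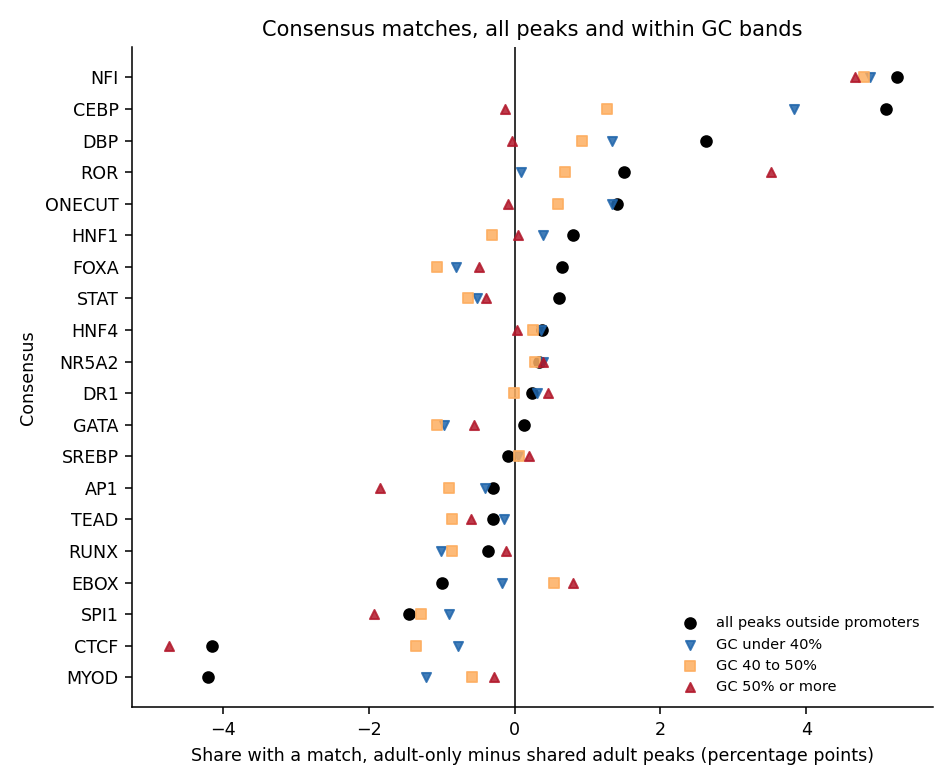
Share of peaks outside promoters with a consensus match, adult-only minus shared adult (x axis, percentage points), for 20 consensus sequences (y axis). Black points use all peaks and coloured marks use peaks within a band of GC content. NFI lies near 5 points in every band, whereas FOXA and STAT are above 0 over all peaks and below 0 within each band.

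Genes were assigned next. An adult-only peak lay in the promoter of 630 of 18725 PCGs, or 3.36%, and in the gene or promoter of 4740, or 25.3%. Of the 630 genes, 553 (87.8%) had a peak in the same or another of their promoters in newborn or suckling liver. Over all 18725 PCGs, 13900 had a promoter peak in newborn and 14135 in suckling liver. No promoter peak in any other list was found for 51 of them (8.10%), against 3123 of 18725 PCGs (16.7%). Genes with a member were long, with a median of 66.6 kb against 13.9 kb for genes without one. Over all PCGs, 13.7% of the adult peaks in genes and promoters were adult-only, and gene lists are read against this background.

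With all deposited peaks, the drug metabolism list had the highest adult-only share. It lost this rank to bile acid genes with equal numbers of top peaks per list (34.2% against 42.0%). The share over all PCGs was then 16.4%. With an IDR limit in every list the drug metabolism list had 39.1%, where the share over all PCGs was 26.4%. Erythroid (6 of 11 peaks, 54.5%), B cell (13 of 27, 48.1%), hepatic transcription factor (41.1%) and bile acid genes (41.0%) then had higher shares. Of 178 adult peaks in 24 genes of drug and xenobiotic metabolism, 63 were adult-only (35.4%, 28.7 to 42.7), and 17 of the 24 genes held at least 1. In the same genes, 17 of 123 suckling liver peaks (13.8%) were suckling-only and 3 of 98 newborn liver peaks (3.06%) newborn-only, where the shares over all PCGs were 14.3% and 8.43%. These peaks were weak, and 6 of the 63 had an IDR of 0.05 or lower. Among adult peaks with such an IDR, 6 of 69 (8.70%, 4.05 to 17.7) were adult-only against 5.85% over all PCGs, so the interval then held the background. For bile acid genes the same count was 8 of 61 (13.1%, upper limit 23.8), with a lower limit above 5.85%. Windows over 50% soft-masked made up 25.4% of the 63 drug metabolism members, against 15.8% of members over all genes. Without such windows the adult-only share was 31.8% for the list and 12.3% over all genes. Cytochrome P450 families hold near-identical copies, and how reads were split between them is not known from the lists.

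AOX1, an aldehyde oxidase that clears drugs and retinaldehyde, held 10 adult-only and 5 shared peaks. In the gene and its promoter, 15 peaks were called in adult, 10 in suckling and 4 in newborn liver. The strongest member (chr15:104162349-104162963) had −log10 p of 27.7 and 36.5 in the replicates. CYP3A22, a P450 of the family that oxidises many drugs, held 8 adult-only and 10 shared peaks, with 18 peaks in adult, 10 in suckling and 4 in newborn liver. The 8 formed a run of 21.9 kb in which 11 adult peaks lay, and their smaller −log10 p ranged from 4.53 to 12.3. CYP2E1, which metabolises ethanol and acetone, held 6 members, of which 2 lay in its promoter. The stronger of these had an IDR of 0.0776. CYP2C49, CYP3A29, CYP3A46, FMO1 and FMO5 held 5 members each. FMO genes encode flavin monooxygenases.

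Bile acid genes came second among the hepatic lists, with 36 of 138 peaks (26.1%, lower limit 19.5) adult-only in 8 of 17 genes. Here the suckling-only share was also high, at 24.8%, and the newborn-only share was 6.67%. AKR1D1, the steroid 5β-reductase of bile acid synthesis, held 11 adult-only and 16 shared peaks, and its strongest member (chr18:11501210-11501688) had 118 and 44.2. SLCO1B3, a sinusoidal uptake transporter, held 6 members, and its strongest promoter member had 57.8 and 23.1. SLCO1A2, of the same transporter family, had a promoter member with 28.7 and 24.7. At CYP27A1, which starts the acidic pathway of bile acid synthesis, the promoter member had 38.5 and 18.9. CYP7A1, the rate-limiting enzyme of the classical pathway, held 3 adult-only and 2 shared peaks with none of the 3 in its promoter.

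Cholesterol genes had 31 of 135 peaks (23.0%) adult-only, amino acid and urea genes 42 of 194 (21.6%), plasma protein genes 53 of 258 (20.5%) and glucose genes 30 of 156 (19.2%). The lower limit of each interval was above 13.7%. None of these 4 held apart among adult peaks with an IDR of 0.05 or lower, where the background was 5.85% and the shares were 4.62% for cholesterol, 9.57% for amino acid, 3.25% for plasma protein and 9.64% for glucose genes. With equal numbers of top peaks, plasma protein genes had 23.2% (lower limit 16.7) against 16.4%, and cholesterol genes had 16.4%. The plasma protein interval then overlapped that of the background, whose upper limit was 16.8%. With the IDR limit in every list, plasma protein genes alone of the 4 were above the background (39.0% against 26.4%). Of the cholesterol members, 29.0% lay in mostly soft-masked windows, and the share without such windows was 17.6%. In amino acid genes the newborn-only share was 21.3%, as high as the adult-only share. Lipoprotein (18.8%), fatty acid (17.4%), nuclear receptor (15.9%), clock (15.2%) and growth hormone (12.8%) genes had intervals that held 13.7%. For hepatic transcription factors the share was 18.2% (14.3 to 22.9), and 9.59% (5.80 to 15.5) once the IDR limit was set on adult peaks, an interval that held the background. With the limit in every list it was 41.1% (33.4 to 49.2) against 26.4%. With equal numbers of top peaks it was 22.4% (lower limit 16.6) against 16.4%. Nuclear receptor genes then had 21.8% (lower limit 17.2), and 29.0% (lower limit 23.6) against 26.4% with the IDR limit in every list.

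**Figure D4:**
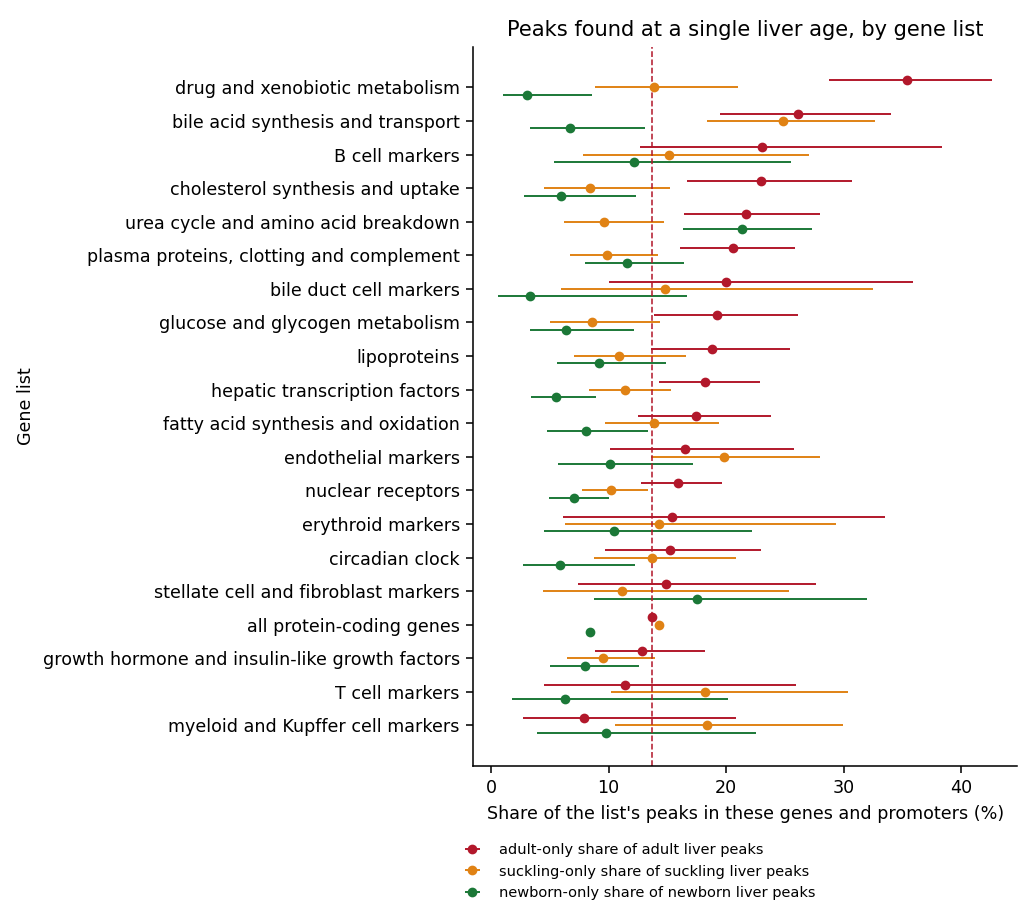
Share of peaks found at a single liver age (x axis, percent) in the genes and promoters of each gene list (y axis), for adult, suckling and newborn liver, with 95% Wilson intervals as error bars. The dashed line marks the adult-only share over all PCGs (13.7%), and drug metabolism stands at 35.4% in adult, 13.8% in suckling and 3.06% in newborn liver.

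Single genes of these lists had strong members. GYS2, the liver glycogen synthase, held 6 members, and the strongest (chr5:51892437-51892839, in an exon) had 94.9 and 73.5, followed by one with 94.5 and 68.6. SLC25A13, a mitochondrial aspartate-glutamate carrier of the urea cycle, held 6, with 45.5 and 44.6 in the strongest. ALB, which encodes albumin, held 7, all with an IDR above 0.05, and they formed a run of 20.7 kb. Its promoter member had 8.53 and 26.1. APOB, the protein of very low density lipoproteins, held 9, with 19.8 and 12.4 in the strongest. ZBTB20, a repressor of alpha-fetoprotein in liver, held 21 members, of which 8 had an IDR of 0.05 or lower, and the second strongest had 72.3 and 60.2. THRB, the thyroid hormone receptor β, held 7, and NR5A2, a receptor that controls bile acid genes, held 7, of which 3 lay in promoters.

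Among promoter members of the lists, THRB had 45.9 and 68.1, the highest smaller value of any list gene. TIE1, an endothelial receptor, had 106 and 38.0, and the clock gene PER2 had 53.2 and 37.4. ACACA, the acetyl-CoA carboxylase of fatty acid synthesis, had 75.8 and 32.9. BHMT, which remethylates homocysteine, had 67.2 and 30.6, and HP, which encodes haptoglobin, had 58.0 and 27.2. At F5, coagulation factor V, the values were 48.3 and 26.4, and at JAK2, the kinase of the growth hormone receptor, 31.7 and 25.1. In GATA6 a promoter member had 45.4 and 23.5, and in PPP1R3C, a glycogen targeting subunit, 21.6 and 24.9. NR0B2, a corepressor that acts on bile acid synthesis, had 20.2 and 28.9. INSIG2, which retains sterol sensors in the endoplasmic reticulum, had 25.5 and 17.6, and TAT, a tyrosine aminotransferase, 29.9 and 16.1. HNF4G had 3.33 and 80.5, the widest ratio between replicates among these promoters. IGF2 had 5.20 and 3.53, among the weakest.

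Markers of other cell types of liver were described alongside, since the tissue was whole. The adult-only share was 4 of 35 peaks (11.4%) at T cell genes, 3 of 38 (7.89%) at myeloid genes, 14 of 85 (16.5%) at endothelial genes, 7 of 47 (14.9%) at stellate genes, 7 of 35 at bile duct genes, 4 of 26 (15.4%) at erythroid genes and 9 of 39 (23.1%) at B cell genes. Each interval held 13.7%. With other peaks entering, B cell genes stood above the background, with 5 of 27 (18.5%) against 5.85% at an IDR of 0.05 or lower in the adult list, 48.1% against 26.4% with that limit in every list and 40.7% against 16.4% with equal numbers of top peaks. Erythroid genes had 6 of 11 (54.5%) against 26.4% with the limit in every list. The B cell share rested on EBF1, which held 6 of the 9. Its strongest member (chr16:64664985-64665706) had 56.8 and 95.7. EBF1 is also expressed in stromal and fat cells. Of the 45 plasma protein genes, which mark hepatocytes, 43 had a promoter peak in the adult list, against 13172 of 18725 PCGs (70.3%). Erythroid genes with a promoter peak numbered 9 of 11 at birth, 6 at suckling age and 4 at adult age, and T cell genes 5 of 13, 12 and 11. Over all 18725 PCGs the counts at these ages were 13900, 14135 and 13172. The part of the other cells in the remaining members was not tested.

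The strongest promoter members lay at genes with varied roles. After FAM71F1 (chr18:19900789-19901458, 108 and 185), TIAL1, an RNA-binding protein, had 86.3 and 69.7, GHDC had 74.7 and 64.8, and NYAP2 had 64.7 and 63.5. IGSF9 had 57.7 and 61.0, and COASY, the last enzyme of coenzyme A synthesis, had 71.8 and 57.1. ATXN1L, TMBIM1, GRAMD4, CDAN1, ZBTB21 and RNF144B completed the 12, with smaller values from 47.3 to 55.5. Every one of the 12 had an IDR of 0.05 or lower. At TMBIM1 and CDAN1 the peak also lay within a neighbouring gene, PNKD and TTBK2. Replicate 1 was the higher in 9 of the 12, whereas replicate 2 was the higher in 55.9% of all members.

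**Figure D5:**
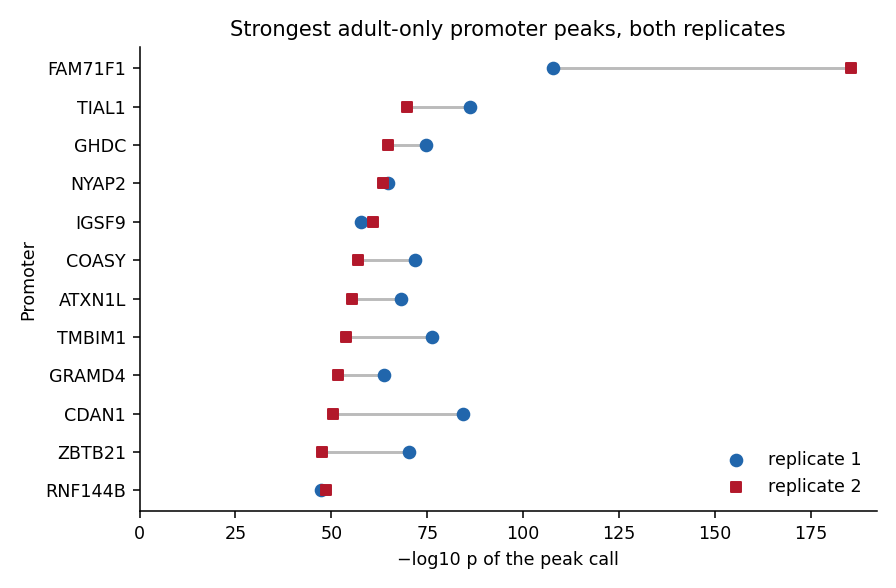
−log10 p of the peak call (x axis) in replicate 1 and replicate 2 of adult liver for the 12 strongest adult-only promoter peaks (y axis, gene). The peak at FAM71F1 has 108 and 185, and the other 11 have smaller replicate values from 47.3 to 69.7.

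The 10 strongest members included no promoter. The first lay in an intron of GRM7 (chr13:64066587-64066658), with 630 and 398 in the replicates. It was 72 bp wide, the narrowest of the 427 members with a smaller −log10 p of 50 or more, whose median was 554 bp. In the run printed above, 54 of 200 bases lay in exact matches of 24 or more bases with the mitochondrial genome. Mitochondrial reads had been removed by alignment, and the part of reads from mitochondria in this peak was not tested. In all, 2 of the 14647 members (0.0137%) held such a match, against 17 of 90123 shared adult peaks (0.0189%).

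The other strong members were between 500 and 1164 bp wide. The peak 157627 bp from ADGRL3 (chr8:60957805-60958510) had 275 and 239, and it lay 58672 bp from the nearest peak of another list. A peak 122638 bp from PID1 had 196 and 151, and one 140795 bp from SLCO4C1, an organic anion transporter, had 209 and 148. The peak nearest NETO1 (chr1:150648862-150650025) had 141 and 175. In TMTC2 an intronic member had 173 and 139, and near PLOD2, a lysyl hydroxylase of collagen, a member had 157 and 124. The other 3 had genes without a symbol, with smaller values from 121 to 143.

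SOX5 held more members than any other named gene. This transcription factor of cartilage and neural development spans 1007 kb of chromosome 5, and 42 of its 89 adult peaks (47.2%) were adult-only, of which 8 had an IDR of 0.05 or lower. Suckling liver had 48 peaks in the gene, newborn liver 46, kidney 31 and muscle 1. The strongest member (chr5:49765418-49766032) had 60.5 and 59.1, the next had 33.1 and 44.3, and 3 lay in promoters. ZBTB20 followed with 21 of 84 peaks, then DPYD, which degrades pyrimidines and fluorouracil, with 20 of 36 and PTPRD with 20 of 48. C8H4orf17, KLF12 and ROBO2 held 17 each, DLG2 16, and AUTS2 and MAGI1 15 each. Per length, C8H4orf17 held 4.88 members in 100 kb, SOX5 4.17, DPYD 2.56 and PTPRD 0.917, against 0.865 over all PCGs and 9.27 over the drug metabolism genes.

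The spacing of members along the chromosomes was described next. Of the 14647, 34.4% lay within 10 kb of another member, against 78.2% of the more numerous shared adult peaks to one another, 28.9% of suckling-only and 19.4% of newborn-only peaks, sets of unequal size. With an IDR of 0.05 or lower it was 12.9%. There were 49 runs of 5 or more. The run with most members held 10 over 40.4 kb, 15839 bp from LGSN, and 2 of the 10 had an IDR of 0.05 or lower. MOXD1 held a run of 8, of which 4 had an IDR of 0.05 or lower, with smaller values up to 48.7. The run of 8 in CYP3A22 is described above, and another of 8 lay at PPWD1 and TRIM23, all of them with an IDR above 0.05. By chromosome, the adult-only share ranged from 10.8% on chromosome 12 to 16.9% on chromosome 8, and the mean GC content of adult peaks was 57.2% and 49.3% on these.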

How the data were processed

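According to the study's methods and per the labels, the authors aligned ATAC-seq reads to Sscrofa11.1 (Bowtie2), filtered out duplicates, poorly mapped reads and reads from mitochondria (SAMtools 1.3.1), called peaks in each library (MACS2) and merged the 2 replicates of a group by IDR. The options named for MACS2 include both a read shift with extension and whole-fragment input, so summits may mark fragment centres rather than insertion sites. Deposited columns hold a −log10 p for replicate 1, for replicate 2 and for the weaker of both. The deposited score is a rescaled IDR, where 540 or more means an IDR of at most 0.05. Deposited peak positions and summits are counted from 0, and positions are printed here counted from 1.

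Overlaps, gaps and features were computed with Python 3.11.15, pandas 2.3.3 and pysam 0.24.0 on chromosomes 1 to 18, with 18725 protein-coding genes and 44112 promoters of RefSeq. A peak took the first of promoter, exon, intron, 300 bp downstream and intergenic. Consensus sequences were searched on both strands in 200 bp around the summit. Functions were tested on simulated data. Shares have Wilson 95% intervals (SciPy 1.17.1), which cover counting error only. "Above" and "below" mean intervals that do not overlap. Alternatives changed the IDR limit, list length, overlap, replicate interval, promoter, motif window and grouping distance. No p-value was computed, since each list pools its libraries. The lists hold no read counts, and the read totals stated by the study were not used here.

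The members, the 19 gene lists and the 20 consensus sequences were chosen with earlier results of these data known. Genes were named by rule as the 10 strongest members, the 12 strongest promoter members, the 10 genes with most members, the promoter members and the 2 genes with most members of each list, and the largest runs. Some further members and genes were named after their values were seen. A gene that the rule names is not reported here. The counts within GC bands and by soft-masking, the matches with the mitochondrial genome and the gene lists at other ages were added after seeing the data.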

Additional observations from a re-analysis of the deposited data

Results flagged for a closer look

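Peaks outside chromosomes 1 to 18 did not enter the report. By the same overlap rule, 556 of 2742 adult liver peaks on chromosome X were adult-only (20.3%, 95% Wilson interval 18.8 to 21.8), of which 153 had an IDR of 0.05 or lower. On chromosome Y there were 7 of 18, although the labels give female animals. Of these 3 had an IDR of 0.05 or lower, and every other list except newborn heart also had peaks found in it alone on Y. Where on Y they lay was not examined. On unplaced scaffolds 198 of 1473 peaks (13.4%) were adult-only. These counts are above 0, and no control sample exists for them. The suckling liver list had 753 of 3695 (20.4%) on chromosome X.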

How the results depend on the processing

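No paired analysis was possible because each list pools its 2 replicates and the results come from no test. With an IDR of 0.05 or lower required in the adult list alone, the adult-only set held 3384 peaks, with 4.93% in promoters, 165 genes with a promoter member, 1617 genes with any member, a GC difference of −7.46 points and 12.9% of members within 10 kb of another. With that limit in every list the promoter share was 6.48% and the set held 14845 peaks. With equal numbers of top peaks per list the values were 9677 peaks, 5.29%, −6.99 points and 27.2%. Requiring 50% of the peak to be covered gave a grouped share of 38.8%, and also counting peaks within 500 bp as shared gave 3.24% in promoters, 353 genes and 29.3% grouped. A promoter of 1 kb upstream to 100 bp downstream gave 1.92% and 272 genes. Distances of 5 and 25 kb gave 22.2% and 54.4% grouped. Reading the NFI consensus backwards, which keeps its base composition, turned its difference to −0.189 points. The reversed word, ACGGTT, holds a CpG, which the NFI consensus does not. Windows outside promoters had a mean of 2.64 CpG sites in adult-only and 4.38 in shared adult peaks. The reversed word is therefore no matched control, and nothing about NFI is concluded from it. The other consensus sequences above or below the shared peaks kept their sign under every setting run over all peaks. AP1, GATA, RUNX, SREBP and TEAD, whose intervals overlapped, changed sign under at least 1. Using the interval of 1 replicate alone gave 15158 to 15406 peaks and 647 to 669 genes with a promoter member. Further choices were made after seeing the data. Leaving out peaks that match the mitochondrial genome left 14645 members. The gene list shares under the IDR limits and equal list lengths are given in the report for lists whose difference ended or arose there. Weak peaks missed in other lists limit every count.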
